A study of Mus musculus with 2 samples.

Results

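The cytosolic ribosomal protein genes were described in YTN16, a mouse gastric cancer cell line, from 1 library with a short hairpin RNA against Gas6 (shGas6, labelled as a Gas6 knockdown) and 1 library with a control hairpin (shControl, labelled as wild type). Members were taken by name: protein-coding genes whose symbol is Rpl or Rps followed by a ribosomal protein number, including the stalk proteins and Rpsa. That gave 84 of 45777 genes, namely 46 main copies of the large subunit, 31 main copies of the small subunit and 7 paralogues. Both cultures carried a hairpin and grew in DMEM with 10% fetal bovine serum and a serum extender. The labels say neither whether a hairpin line is 1 clone or a pool, nor how the hairpin was delivered, nor give its sequence. RNA was column-purified and the libraries were made with a stranded kit for polyadenylated RNA.

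A ribosome is built from ribosomal RNA and about as many different proteins as there are genes here, most of them present once per particle. The large subunit joins amino acids and holds the exit tunnel, and the small subunit reads the messenger RNA. Ribosomal protein messenger RNAs are among the most abundant in any growing cell, and they belong to the 5' TOP class: transcription starts at a cytosine followed by a run of pyrimidines, which lets the mTOR pathway, through LARP1, control their translation and stability together. A few members have paralogues with restricted or regulated expression, and the genome holds many processed pseudogenes of these genes whose reads are hard to keep apart from those of the member.

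Gas6 itself, the ligand of the TAM receptors, had 731 counts in shGas6 and 2480 in shControl, which puts shGas6 at 29.0% of the shControl level. The libraries held 51807140 counts in shGas6 and 50756676 in shControl, with 20649 and 20327 genes detected. With 1 library per group, no difference given here has a replicate check, and no test between the groups was possible. Intervals in brackets are exact (Clopper-Pearson) 95% intervals for counting error only, and since copies made by PCR are not independent molecules, they may be too narrow even for that. These are bulk libraries, so fewer cells of a type and less RNA per cell cannot be told apart. Of 6 epithelial markers, Cdh1, Krt8, Krt18 and Krt19 were measured, with a summed level over the list of 6846 CPM (counts scaled to a common library size) in shGas6 and 4436 CPM in shControl, while Epcam and Cldn4 were under 1 CPM in both. Leukocyte markers summed to 0.213 and 0.767 CPM, fibroblast markers to 2.24 and 1.83 CPM, and endothelial markers to 4.29 and 12.4 CPM, in shGas6 and shControl. Of these lists, 4 of 6 leukocyte, 3 of 6 fibroblast and 2 of 4 endothelial markers were at 0 in shGas6, against 2 of each in shControl, and the part of other cell types in the results was not tested.

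Pyrimidine runs were more frequent at the annotated starts of these genes than at other starts, though most of the members' starts lacked them. How closely annotated starts match those used in these cells was not tested. RefSeq promoter sequence (GRCm38.p6) was matched for 64 of the 84 members, with 76 annotated starts. A cytosine at the annotated start followed by at least 4 pyrimidines was found at 14 of the 76 starts, or 18.4%. The share was 2.51% of all 32851 starts in the table and 2.20% of the starts of protein-coding genes. A run of at least 8 pyrimidines within 10 bases of the start was found at 40.8% of the members' starts. The share was 13.7% of all starts and 13.6% of the starts of protein-coding genes. Each window printed here runs 5' to 3' on the gene's strand, from 40 bases before the annotated start to 20 bases from it on, and capitals mark the longest pyrimidine run within 10 bases of the start (the most upstream start, where the table has several). Rpl35, Rpl28, Rps27 and Rpl7a are shown for their runs at the start, Rpl31 as one of the members with the lowest ratio, and Rpl22l1 and Rps27l as the paralogues measured beside their main copies.
Rpl35: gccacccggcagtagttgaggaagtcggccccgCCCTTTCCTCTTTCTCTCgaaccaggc
Rpl28: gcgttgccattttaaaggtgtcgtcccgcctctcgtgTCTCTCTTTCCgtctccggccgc
Rps27: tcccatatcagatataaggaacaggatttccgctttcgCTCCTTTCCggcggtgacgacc
Rpl7a: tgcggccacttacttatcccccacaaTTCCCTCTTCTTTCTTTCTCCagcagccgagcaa
Rpl31: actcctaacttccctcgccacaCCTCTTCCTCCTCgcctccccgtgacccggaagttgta
Rpl22l1: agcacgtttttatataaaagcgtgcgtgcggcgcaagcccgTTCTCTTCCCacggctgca
Rps27l: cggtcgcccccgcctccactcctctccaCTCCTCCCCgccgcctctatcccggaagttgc

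These windows lie at chr2:39005112-39005171 on the minus strand (Rpl35), chr7:4792925-4792984 on the plus strand (Rpl28), chr3:90213629-90213688 on the minus strand (Rps27), chr2:26910767-26910826 on the plus strand (Rpl7a), chr1:39367811-39367870 on the plus strand (Rpl31), chr3:28805468-28805527 on the plus strand (Rpl22l1) and chr9:66946046-66946105 on the plus strand (Rps27l). The longest run printed, 21 pyrimidines, is that of Rpl7a, whose annotated start lies inside it at a base other than cytosine. The letters TATAAA, searched on both strands in the 250 bases before the start, stood at 5 of the members' 76 starts (6.58%). The share was 12.4% of all starts and 11.6% of the starts of protein-coding genes. Rpl22l1 was 1 of the members that held these letters. The letters CCGGAAG, a core bound by ETS factors (CTTCCGG on the other strand), were searched on both strands from 250 bases before to 50 bases after each start. They stood at 35.5% of the members' starts, against 8.86% of all starts and 11.5% of the starts of protein-coding genes. Of the 60 measured members with a promoter, the 13 with a cytosine and 4 pyrimidines at a start had a median log2 ratio (shGas6 over shControl) of -0.16, and the other 47 had -0.21. The 25 with the ETS letters had a median of -0.17 and the other 35 had -0.22. The 29 with a run of at least 8 pyrimidines had a median of -0.21 and the other 31 had -0.19. The 4 with TATAAA had a median of -0.07 and the other 56 had -0.21, the widest gap of the 4 features and the one with the fewest genes.

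Ribosomal protein messenger RNA took a smaller share of the shGas6 library. All 84 members together held 4.33% of the counts in shGas6 (4.32 to 4.34) and 4.99% in shControl (4.99 to 5.00). Per transcript, as summed TPM (a scaled level that also divides by transcript length), they made up 11.1% of shGas6 and 12.3% of shControl. The summed counts were 1.15-fold lower in shGas6 (1.147 to 1.152). Large subunit genes held 2.71% of counts in shGas6 and 3.18% in shControl, 1.17-fold lower, and small subunit genes held 1.59% and 1.79%, 1.12-fold lower.

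The difference was small for most genes and had the same sign for most. Genes were called measured at 1 CPM or more in either library: 80 members (77 main copies and 3 paralogues) and 13367 genes in all passed. The log2 ratio was below 0 for 72 of the 80, where 50.9% of all measured genes were below 0. Among the 4243 genes at least as abundant as the lowest main copy (58.6 CPM on average over both libraries, Rpl34), 52.9% were below 0, a set that includes the members. This floor is low for the family, since the next lowest main copy, Rps21, had 141 CPM in shGas6 and 156 CPM in shControl. Most reads of the Rpl34 family fell in copy rows, as described further on. The median log2 ratio was -0.19 over the 46 large subunit genes and -0.20 over the 31 small subunit genes, against -0.01 over all measured genes and -0.03 over the abundant ones. Both subunits were therefore lower by a similar amount at the median, 1.14-fold and 1.15-fold.

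The log2 ratios of the members spread less than those of the abundant genes, a set matched on its lowest level only. The standard deviation of the log2 ratio across genes was 0.17 over the 77 main copies, against 0.61 over the abundant genes and 1.10 over all measured genes. Small subunit genes spread less, with a standard deviation of 0.13, than large subunit genes, with 0.20. With the chromosome's median subtracted, the standard deviations were 0.10 for small and 0.14 for large subunit genes. Relative to the median of the nearest genes, they were 0.13 and 0.15. On that last scale the distance between the quartiles was wider for small subunit genes, at 0.19 against 0.16. The part of gene location in the gap between the subunits was not tested. No member was 2-fold higher or 2-fold lower, where 8.64% of measured genes were 2-fold higher and 6.19% were 2-fold lower (3.94% and 1.93% of abundant genes). At 1.5-fold, 1 member was higher, against 16.0% of measured genes, and 4 were lower, against 12.6%. A smaller mark was set at a ratio of 0.8 (20% lower) and at its inverse (25% higher), where 11 members were lower, against 24.0% of measured genes and 19.0% of abundant genes, and 1 was higher, against 26.4% and 20.3%. The counting interval of the fold lay wholly below 1 for 69 of 80 members, against 40.3% of measured and 47.5% of abundant genes, and wholly above 1 for 7, against 39.2% of measured genes. Large ratios were thus fewer among the members than among all genes, and negative ratios were more frequent.

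**Figure D1:**
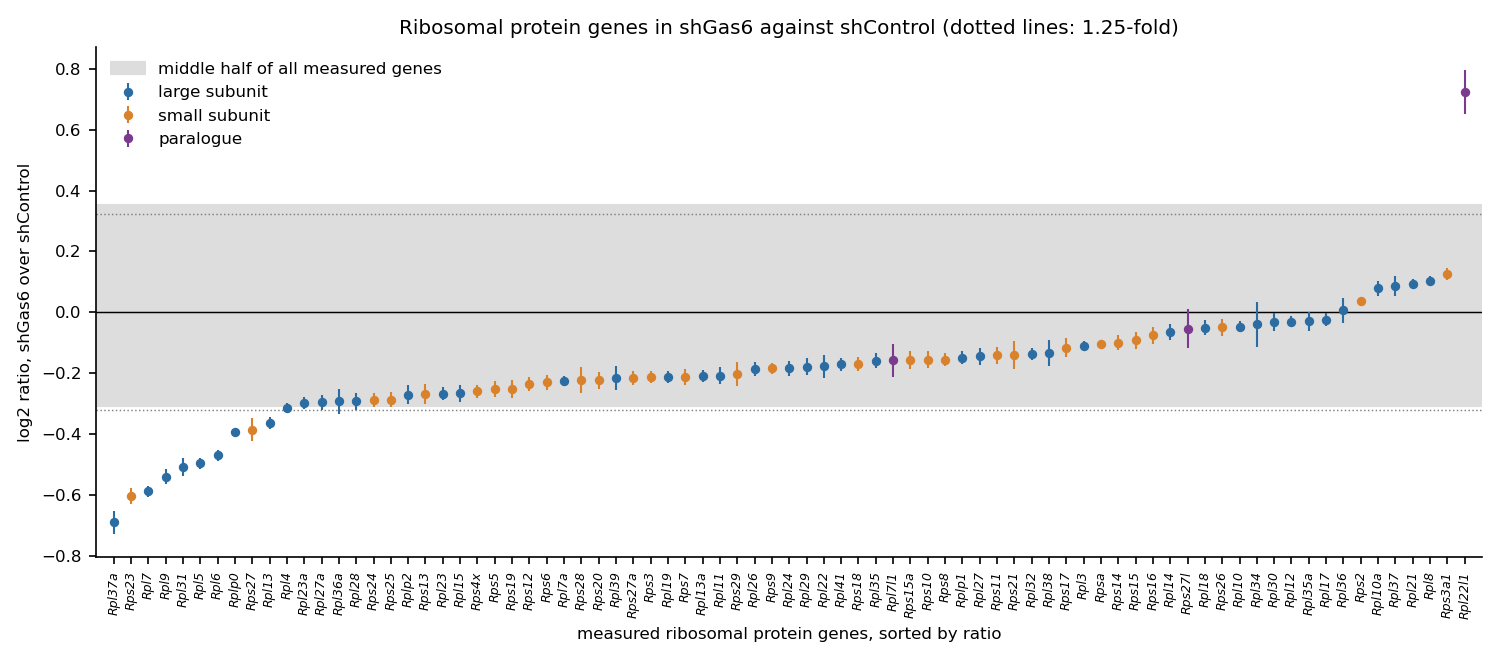
Log2 ratio of counts, shGas6 over shControl, for 79 of the 80 measured ribosomal protein genes sorted from low to high, with bars for the 95% counting interval. The grey band spans the lower to the upper quartile of all 13367 measured genes, the dotted lines mark a ratio of 0.8 and its inverse, and 71 of the points lie below 0, with Rpl22l1 alone at the upper right.

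Most of the genes with the lowest ratios belong to the large subunit. Rpl37a, a small zinc-binding protein of the large subunit (chromosome 1), had 9716 counts in shGas6 and 15423 in shControl, or 188 CPM in shGas6 and 303 CPM in shControl, 1.61-fold lower (1.57 to 1.66). Rps23, which sits at the decoding centre of the small subunit (chromosome 13), had 369 CPM in shGas6 and 562 CPM in shControl, 1.52-fold lower (1.49 to 1.55). Rpl7, a large subunit protein on chromosome 1, had 826 CPM in shGas6 and 1242 CPM in shControl, a log2 ratio of -0.59. All 3 were lower in shGas6 by at least 1.5-fold. The next lowest were also large subunit genes. Rpl9 (chromosome 5) had 422 CPM in shGas6 and 614 CPM in shControl, 1.45-fold lower (1.43 to 1.48). Rpl31 (chromosome 1) had 301 CPM in shGas6 and 429 CPM in shControl, 1.42-fold lower (1.39 to 1.45). Rpl6 (chromosome 5) had 823 CPM in shGas6 and 1141 CPM in shControl, 1.39-fold lower (1.37 to 1.40). Of the 8 lowest members, 7 belong to the large subunit and Rps23 to the small, where 46 of all 77 main copies are of the large subunit. All 8 lie on chromosomes 1, 5, 8 and 13, where Rps23 is the only main copy of the small subunit.

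The 5S ribonucleoprotein members, which carry the 5S ribosomal RNA into the large subunit and, when free, bind the p53 regulator MDM2, were both lower, by unequal amounts. Rpl5 (chromosome 5, 107900508 to 107909005) had 745 CPM in shGas6 and 1052 CPM in shControl, 1.41-fold lower (1.39 to 1.43). Rpl11 (chromosome 4, 136049354 to 136053393) had 384 CPM in shGas6 and 444 CPM in shControl, 1.16-fold lower (1.13 to 1.18). Rpl5 had the lower ratio, with intervals that do not overlap. Relative to the 50 nearest genes, however, the log2 ratios of Rpl5 and Rpl11 were -0.25 and -0.26.

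The stalk proteins, which recruit elongation factors to the ribosome, were all lower. Rplp0, the base of the stalk (chromosome 5), had 1989 CPM in shGas6 and 2615 CPM in shControl, 1.32-fold lower (1.30 to 1.33). Its partner Rplp1 (chromosome 9) had 597 CPM in shGas6 and 662 CPM in shControl, 1.11-fold lower (1.09 to 1.13). Rplp2 (chromosome 7) had 314 CPM in shGas6 and 378 CPM in shControl, 1.21-fold lower (1.18 to 1.23). The 3 ratios fall in 3 intervals that do not overlap, so the stalk genes differed among themselves by more than counting error. Relative to the median of the nearest genes, however, the log2 ratios of Rplp0 and Rplp1 were alike, at -0.23 and -0.24. Rplp2 was the lowest of the stalk genes on this scale, at -0.34. Relative to the chromosome's median, Rplp0 was at -0.21, Rplp1 at -0.14 and Rplp2 at -0.31.

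Of 5 further members, chosen for their known roles and with their values already seen, all were lower. Rps6, the small subunit protein that S6 kinase phosphorylates (chromosome 4), had 518 CPM in shGas6 and 608 CPM in shControl, 1.17-fold lower (1.15 to 1.19). Rps19, a gene mutated in human Diamond-Blackfan anaemia (chromosome 7), had 341 CPM in shGas6 and 406 CPM in shControl, 1.19-fold lower (1.17 to 1.22). Rps27a, which is made as a fusion with ubiquitin (chromosome 11), had 558 CPM in shGas6 and 647 CPM in shControl, 1.16-fold lower (1.14 to 1.18). All 3 lay between the quartiles of the main copies, -0.27 and -0.11 on the log2 scale. Rpl4, which lines the exit tunnel (chromosome 9), had 1102 CPM in shGas6 and 1370 CPM in shControl, 1.24-fold lower (1.23 to 1.26), just short of the mark at a ratio of 0.8. Rpl38, needed for translation of Hox messenger RNAs in mouse embryos (chromosome 11), had 168 CPM in shGas6 and 184 CPM in shControl, 1.10-fold lower (1.07 to 1.13).

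The upper end of the family held few genes and small differences. Among main copies the highest was Rps3a1, a small subunit protein, with 724 CPM in shGas6 and 664 CPM in shControl, a log2 ratio of 0.13, and this sign rests on how its copies are counted, as described further on. Rpl8, at the core of the large subunit, had 1227 CPM in shGas6 and 1143 CPM in shControl, a log2 ratio of 0.10. Rpl21 had 1478 CPM in shGas6 and 1385 CPM in shControl, a log2 ratio of 0.09. These genes were higher in shGas6 by little. Rpl37 had 312 CPM in shGas6 and 294 CPM in shControl, and Rpl10a had 495 CPM in shGas6 and 469 CPM in shControl, log2 ratios of 0.09 and 0.08. Rps2 had 1785 CPM in shGas6 and 1740 CPM in shControl, a log2 ratio of 0.04, and Rpl36 had 182 CPM in shGas6 and 181 CPM in shControl, with an interval that held no difference. The 1 member at least 25% higher was the paralogue Rpl22l1.

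The size of a member's difference went with the chromosome it lies on. Measured genes of chromosomes 1, 5, 8 and 13 as a whole had median log2 ratios of -0.32, -0.18, -0.17 and -0.28, the 4 chromosomes, of those that hold members, with a median of -0.15 or lower (grouped after the values were seen). Of the 11 main copies on these 4 chromosomes, 10 were at least 20% lower, with a median of -0.51. Of the 66 main copies on other chromosomes, only Rps27 on chromosome 3 was, and the median was -0.18. Non-member genes had a median of -0.22 on the 4 chromosomes and 0.05 elsewhere. At least 20% lower were 41.3% of the non-member genes on the 4 chromosomes and 19.3% of those elsewhere. The part of chromosome-wide differences in the lower members was not tested beyond these values.

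The lower level of the family did not disappear when each gene was set against its own chromosome. The median of the main copies lay below the median of all measured genes on each of the 19 chromosomes that hold them, by 0.03 to 0.38 on the log2 scale. Against their own chromosome's median, 73 of 77 main copies were below, where 49.7% of other measured genes were, and the median difference was -0.23. The standard deviation of the main copies was 0.12 after this subtraction and 0.17 before it. Against the median of the 50 measured genes nearest to each, the median difference was -0.22. Across the 77 main copies, which share both libraries, the log2 ratio and the chromosome's median had a Pearson correlation of 0.70 and a Spearman correlation of 0.49. The same correlations with mean CPM were -0.03 and -0.04, and with transcript length -0.08 and -0.13.

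Single chromosomes show the pattern gene by gene. All 3 members on chromosome 1 (Rpl37a, Rpl7 and Rpl31) were among the 8 lowest, at log2 ratios of -0.69, -0.59 and -0.51. On chromosome 5, Rpl9, Rpl5, Rpl6 and Rplp0 lay between -0.54 and -0.40, while Rpl21 was at 0.09. Relative to the 50 nearest genes, Rpl6 was at -0.013, Rpl9 at -0.19, Rplp0 at -0.23 and Rpl5 at -0.25, so the difference of Rpl6 was nearly absent on this scale. Rpl21 lies further along chromosome 5 (146832890 to 146837032), where the 50 nearest genes had a median of 0.58; relative to these it was at -0.49, and relative to the whole chromosome at 0.27. Chromosome 15 lay on the other side, at a median of 0.26 over its measured genes; there Rpl8, Rpl37, Rpl30 and Rpl3 had a median of 0.03 and were lower by 0.23 relative to the chromosome. Chromosome 7 held the most main copies, 14, and all 14 lay between -0.30 and -0.05.

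**Figure D2:**
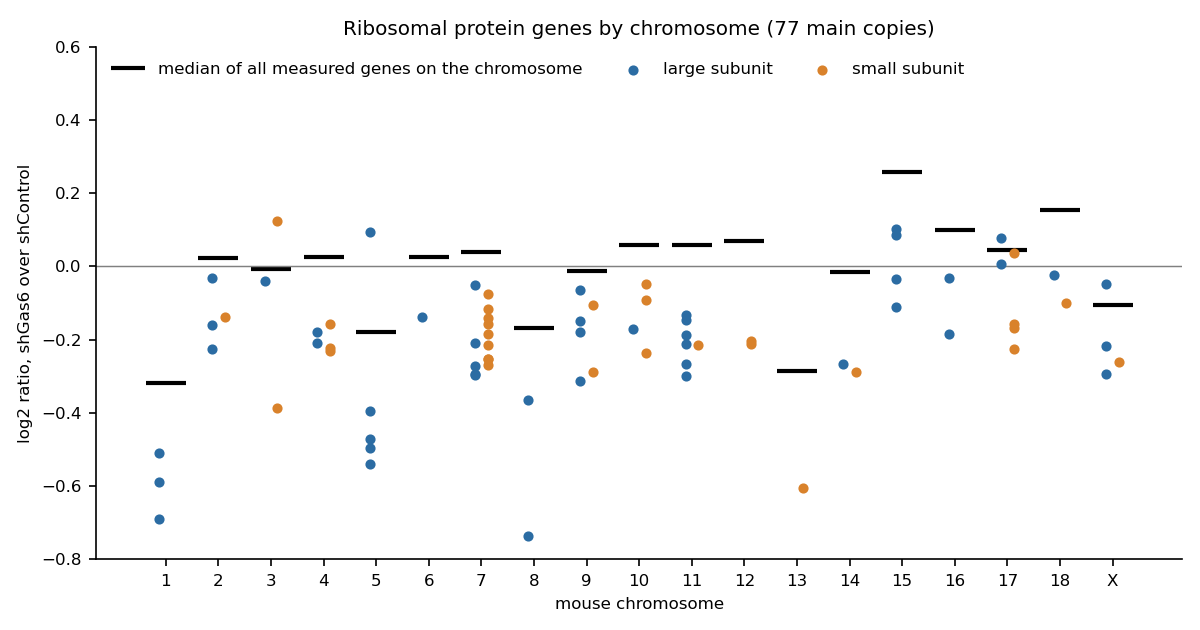
Log2 ratio, shGas6 over shControl, of the 77 main copies by mouse chromosome, each point being 1 gene, with a black bar for the median of all measured genes on that chromosome. Points on chromosomes 1, 5, 8 and 13 reach furthest down, and on each of the 19 chromosomes the members' median lies below the black bar.

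The paralogue Rpl22l1 was higher in shGas6 while its main copy Rpl22 was lower. Rpl22l1 (chromosome 3, 28805508 to 28807424) had 4088 counts in shGas6 and 2435 in shControl, or 79.0 and 47.9 CPM, 1.65-fold higher in shGas6 (1.57 to 1.74), a log2 ratio of 0.72. Rpl22 (chromosome 4, 152324436 to 152334082), a large subunit protein known in mouse to repress Rpl22l1, had 204 CPM in shGas6 and 231 CPM in shControl, 1.13-fold lower (1.10 to 1.16). That is close to the median of the 77 main copies, 1.14-fold lower, so Rpl22 did not stand apart from the family. A link between the 2 genes was not tested. Rpl22l1 thus took 27.9% of the pair's reads in shGas6 (27.2 to 28.7) and 17.2% in shControl (16.6 to 17.8). Summed over the pair the level was nearly the same in both libraries, at 283 CPM in shGas6 and 279 CPM in shControl.

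On the per-length scale the order within the pair differed between the libraries. Rpl22l1 had 327 TPM in shGas6 and 192 TPM in shControl, while Rpl22 had 189.8 TPM in shGas6 and 206.6 TPM in shControl. Rpl22l1 therefore made up 63.3% of the pair's TPM in shGas6 and 48.1% in shControl. These shares depend on the transcript length that the deposited values assume for each gene.

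Rps27l and Rpl7l1, the other measured paralogues, did not stand above their own shControl level. Rps27l, an inducible p53 target in human cells, had 75.9 CPM in shGas6 and 78.8 CPM in shControl, and the interval of its fold held no difference. Its main copy Rps27, a zinc-finger protein of the small subunit and the 1 member at least 20% lower outside chromosomes 1, 5, 8 and 13, had 185 CPM in shGas6 and 241 CPM in shControl, 1.31-fold lower (1.27 to 1.34). The share of Rps27l in the pair's reads was 29.2% in shGas6 (28.4 to 29.9) and 24.6% in shControl (24.0 to 25.3), so this shift came with the lower main copy. Rpl7l1 had 105 CPM in shGas6 and 117.5 CPM in shControl, 1.12-fold lower, and it took 11.3% of the reads of the pair with Rpl7 in shGas6 and 8.64% in shControl.

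The remaining paralogues were barely detected. Rpl3l, known from muscle, had 4 counts in shGas6 and 0 in shControl. Rpl39l, known from testis, had 2 counts in shGas6 and 0 in shControl, and Rpl10l, also of testis, had 0 in both. Rpl32l had 17 counts in shGas6 and 14 in shControl. A count of 0 allows up to 0.0580 CPM in shGas6 and 0.0590 CPM in shControl, taken as 3 counts. Their main copies were abundant, with Rpl3 at 1051 CPM in shGas6 and 1135 CPM in shControl, Rpl10 at 993 and 1026 CPM, Rpl39 at 183 and 213 CPM, and Rpl32 at 711 and 782 CPM.

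**Figure D3:**
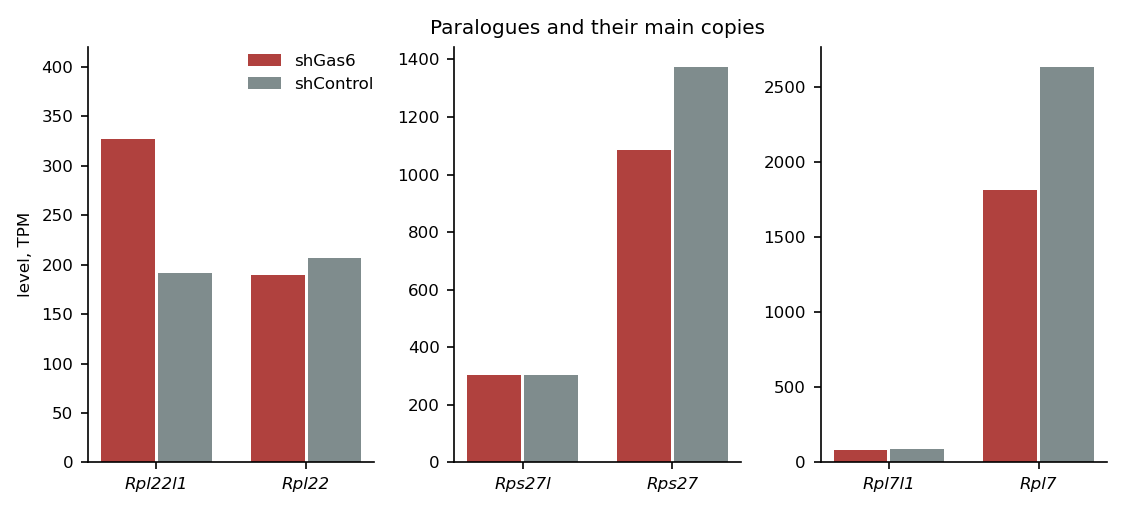
Levels in TPM of the 3 measured paralogues (left in each panel) and their main copies (right), with shGas6 in red left of shControl in grey, 1 library each. Rpl22l1 stands at 327 TPM in shGas6 and 192 TPM in shControl, while Rps27 and Rpl7 are lower in shGas6 than in shControl.

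Levels within a library ranged widely, although most of the proteins are present once per ribosome. Main copies ran from 139.8 to 3667 TPM in shGas6, with a median of 1344 TPM, and from 151 to 3814 TPM in shControl, with a median of 1461 TPM. Rps2, by the messenger RNA entry of the small subunit, was highest in shGas6, at 3667 TPM against 3454 TPM in shControl, and Rplp0 was highest in shControl, at 3001 TPM in shGas6 against 3814 TPM in shControl. Rpl41, the smallest ribosomal protein, had 2805 TPM in shGas6 and 3054 TPM in shControl. Rpl32 had 2893 and 3077 TPM, and Rpl12, at the base of the stalk, had 2907 and 2871 TPM, in shGas6 and shControl. The order of the genes was nearly the same in both libraries, with a Spearman correlation of 0.96 over the 77 main copies.

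Some of the lowest TPM values came with long assumed transcripts. Rps15a was lowest, at 139.8 TPM in shGas6 and 151 TPM in shControl. The length implied by its deposited count and FPKM (a level per length, like TPM) in shControl is 5728 bases, against a median of 825 bases over the main copies, and that of Rps20, at 215 TPM in shGas6 and 242 TPM in shControl, is 3843 bases. Rpl22 and Rpl34 were also low, at 189.8 and 213 TPM in shGas6 and 206.6 and 211 TPM in shControl, and the length of Rpl34, 622 bases in shControl, is below that median. For Rps15a and Rps20 the low TPM thus depends on the length assigned to the gene.

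**Figure D4:**
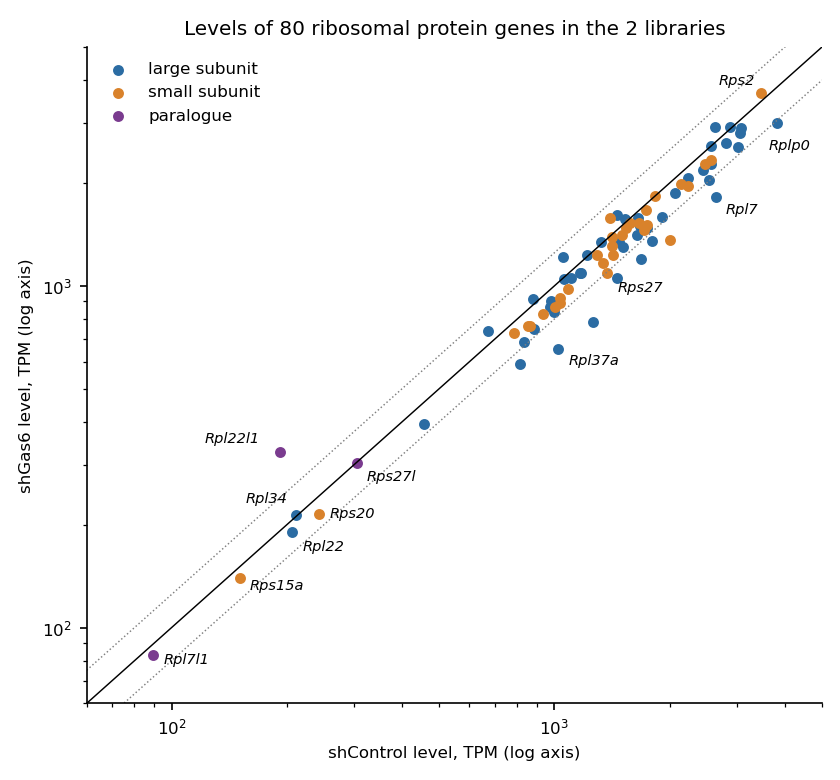
Level in TPM of the 80 measured ribosomal protein genes in shGas6 (vertical, log axis) against shControl (horizontal, log axis), each point being 1 gene, with the solid line at equal levels and dotted lines at a ratio of 0.8 and its inverse. Most points lie just under the solid line, and Rpl22l1 lies above it at 327 TPM in shGas6 and 192 TPM in shControl.

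Pseudogene and retrocopy rows mattered for Rps3a1 and Rpl34. Of the main copies, 57 had such rows, 227 in all, and adding them to their member moved the member's log2 ratio by more than 0.05 for these 2 members. Rps3a2 had 4204 counts in shGas6 and 7892 in shControl, a log2 ratio of -0.93. Rps3a3 had 3775 counts in shGas6 and 8562 in shControl, a log2 ratio of -1.21, and both stood apart from Rps3a1 at 0.13. Summed, the 3 rows had 45438 counts in shGas6 and 50209 in shControl, 1.12-fold lower (1.11 to 1.14), so the sum was lower in shGas6, as most members were. For Rpl34, the copies held 75.8% of the family's reads in shGas6 and 77.4% in shControl, and the summed log2 ratio was -0.14 where the member alone had -0.04.

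Copy rows lay nearer to their member than to the chromosome they lie on in 42 of 59 cases. Over these 59 copies, with at least 100 counts in each library and without those of Rps3a1, the log2 ratio of the copy had a Pearson correlation of 0.80 with that of its member and of 0.00 with the median of the copy's own chromosome (0.40 and 0.10 with the 2 copies of Rps3a1). Rps23-ps1, on chromosome 3, had 1275 counts in shGas6 and 1928 in shControl, a log2 ratio of -0.62, beside -0.61 for Rps23 on chromosome 13 and -0.01 for the median of chromosome 3. Rpl13-ps3, on chromosome 14, had 193 counts in shGas6 and 278 in shControl, a log2 ratio of -0.55, beside -0.36 for Rpl13 on chromosome 8. Both copies were named after their values were seen. How many of these reads arose from the copy was not tested, and the sources used here do not say how the authors counted reads that match several places.

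Ribosomal components that the naming rule leaves out had a median log2 ratio of -0.19 over 4 genes, 3 of them below 0. Fau, a fusion that yields Rps30 (chromosome 19), had 221 CPM in shGas6 and 273 CPM in shControl, 1.24-fold lower (1.21 to 1.27). Rack1, a scaffold on the small subunit, had 1174 CPM in shGas6 and 1238 CPM in shControl, 1.06-fold lower (1.04 to 1.07). Rpl36al, a paralogue of Rpl36a, had 113.4 CPM in shGas6 and 110.2 CPM in shControl, and its interval held no difference.

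Messenger RNAs that share the 5' TOP start but make no ribosomal protein had a like median. Of 27 measured genes of this list, 24 had a log2 ratio below 0 (88.9%, against 50.9% of all measured genes) and the median was -0.22. Of these 27, 6 were at least 20% lower (22.2%, against 24.0% of all measured genes) and 1 was at least 25% higher (3.70%, against 26.4%). Eef1b2, an exchange factor of elongation factor 1 (chromosome 1), had 388 CPM in shGas6 and 549 CPM in shControl, 1.42-fold lower, and Cox7c, a subunit of cytochrome c oxidase (chromosome 13), had 80.8 CPM in shGas6 and 131 CPM in shControl, 1.62-fold lower. Tma7, a small translation-associated protein, was 1.47-fold lower. Snhg1, a noncoding host gene of small nucleolar RNAs, went the other way, with 73.7 CPM in shGas6 and 25.6 CPM in shControl, 2.87-fold higher (2.70 to 3.06).

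Factors that build and use ribosomes had medians between that of the members and 0. Of 80 ribosome biogenesis factors, 63 were below 0 (78.8%, against 50.9% of all measured genes), and the median log2 ratio was -0.15. There were 24 at least 20% lower and 3 at least 25% higher (3.75%, against 26.4% of all measured genes). Dkc1, the pseudouridine synthase of ribosomal RNA, had 57.4 CPM in shGas6 and 106 CPM in shControl, 1.84-fold lower (1.76 to 1.93). Nvl and Wdr12, both needed for large subunit assembly and both on chromosome 1, were each 1.72-fold lower. The biogenesis list thus had 30.0% of its genes at least 20% lower, against 13.8% of the members and 24.0% of all measured genes.

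The initiation, elongation and polymerase lists had medians below 0. The initiation and elongation lists share genes with the 5' TOP list, Eif3f and Eef1b2 among them, so they are not separate sets. Of 39 initiation factors, 26 were below 0 (66.7%, against 50.9% of all measured genes), with a median of -0.15. Of these 39, 6 were at least 20% lower (15.4%, against 24.0% of all measured genes) and 4 at least 25% higher (10.3%, against 26.4%). Eif4e2, a cap-binding protein, was 1.67-fold lower, Eif3g, a subunit of initiation factor 3, was 1.53-fold lower, and Eif4ebp1, which represses cap-dependent initiation, was 2.23-fold higher (2.16 to 2.31). Of 14 elongation and termination factors, 9 were below 0 (64.3%, against 50.9%), with a median of -0.11. At least 20% lower were 4 of the 14 (28.6%, against 24.0%), and 1 was at least 25% higher (7.14%, against 26.4%). Eif5a2 was 1.53-fold and Eef1e1 1.45-fold lower. Of 20 measured genes of RNA polymerase I and its factors, 12 were below 0 (against 50.9% of all measured genes), with a median of -0.09. Only Taf1a, 1.29-fold lower, and Twistnb, at a log2 ratio of 0.59, were past the smaller mark. Of all measured genes, 24.0% were at least 20% lower and 26.4% at least 25% higher. The row for an 18S ribosomal RNA sequence, Rn18s-rs5, held 0.171% of counts in shGas6 and 0.106% in shControl, although libraries of polyadenylated RNA do not measure the level of ribosomal RNA.

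Some regulators of these genes differed by more than any member did. The mTOR and LARP1 list had a median log2 ratio of 0.01 over 27 measured genes, 12 of them below 0 (44.4%, against 50.9% of all measured genes). In this list 4 genes were at least 2-fold higher (14.8%, against 8.64% of all measured genes) and 0 at least 2-fold lower (against 6.19%). Sesn2, an inhibitor of mTOR complex 1 that senses leucine, had 73.6 CPM in shGas6 and 10.2 CPM in shControl, 7.21-fold higher (6.57 to 7.91). Ddit4, a stress-induced mTOR inhibitor, had 88.1 CPM in shGas6 and 18.4 CPM in shControl, 4.80-fold higher (4.47 to 5.16). The other two were Eif4ebp1 and Deptor, an mTOR-binding inhibitor, at 2.16-fold higher. The kinase Mtor and the binding protein Larp1, named here after their values were seen, had log2 ratios of -0.05 and -0.06.

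Myc, an activator of ribosomal protein and biogenesis genes, had 242 CPM in shGas6 and 114.2 CPM in shControl, 2.12-fold higher (2.06 to 2.19). Myc lies on chromosome 15, and its antagonists Mxd4 and Mxd3, 2.33-fold and 2.06-fold lower, lie on chromosomes 5 and 13. Of the 11 genes of the MYC family list, 4 were at least 25% higher and 4 at least 20% lower (36.4% each, against 26.4% and 24.0% of all measured genes), with a median of -0.27. In the list of the 5S ribonucleoprotein and Mdm2, which holds 3 members (Rpl5, Rpl11 and Rpl23), 7 of 12 genes were below 0 (58.3%, against 50.9% of all measured genes). The median was -0.06, with 4 genes at least 25% higher (33.3%, against 26.4% of all measured genes) and 1 at least 20% lower (8.33%, against 24.0%). Mdm2 had 92.7 CPM in shGas6 and 56.7 CPM in shControl, 1.64-fold higher (1.56 to 1.71). Cdkn1a, the p21 cell cycle inhibitor, had 23.6 CPM in shGas6 and 3.52 CPM in shControl, 6.70-fold higher (5.72 to 7.88). Trp53 had 15.6 CPM in shGas6 and 13.2 CPM in shControl, 1.19-fold higher (1.07 to 1.32).

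**Figure D5:**
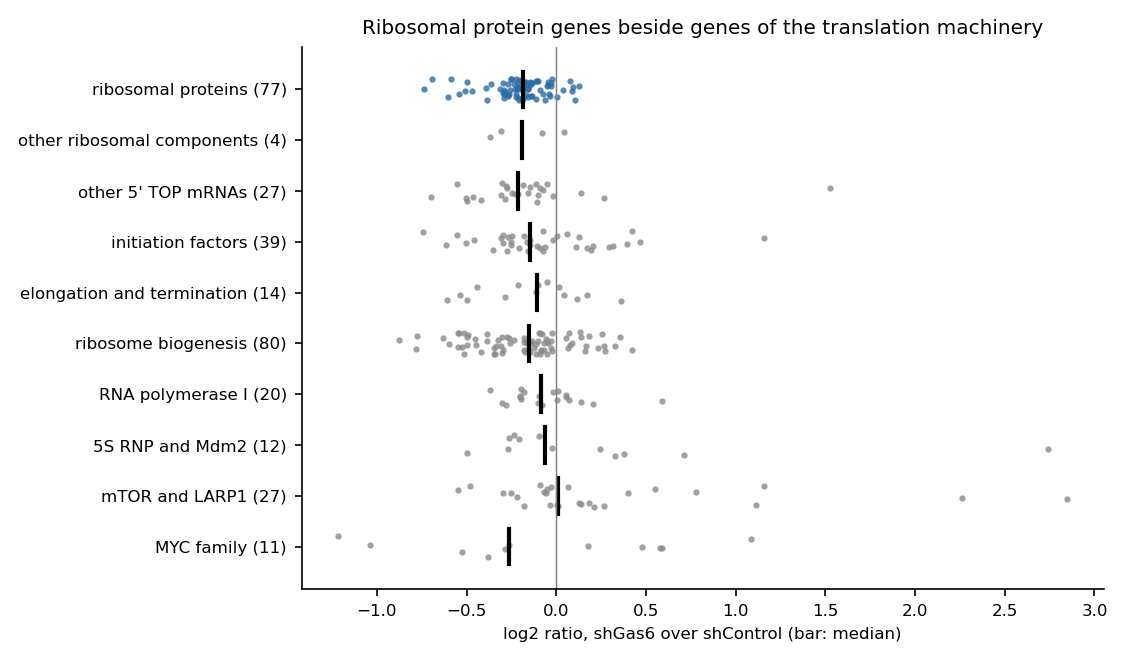
Log2 ratio, shGas6 over shControl, of the 77 main copies (blue) and of the measured genes of 9 comparison lists (grey), each point being 1 gene and each black bar a median, with the number of genes in brackets. The ribosomal proteins, at a median of -0.19, have the smallest standard deviation of the sets drawn, 0.17 against 0.19 for the other ribosomal components. The 5' TOP, initiation, 5S and Mdm2, mTOR and MYC lists reach beyond 2-fold.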

How the data were processed

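The deposited table holds 45777 mouse genes with, per the file headers, a raw read count, an FPKM and a TPM value for each of the 2 libraries. The submitters' processing notes name Trimmomatic and the builds GRCm38 and mm10. The tools for alignment and counting, and the strand setting, are not stated in what was read here, so reads of overlapping antisense genes could not be told apart. TMM factors from edgeR 4.0.16 in R 4.3.3 scaled the deposited counts, and CPM divide by the scaled library total. The log2 ratio is shGas6 over shControl with a pseudocount of 0.5; folds carry no pseudocount, and their intervals come from the exact binomial split of the counts (scipy 1.17.1). TPM and FPKM values are those the authors deposited, with 0.1 added for ratios. Genes under 1 CPM in both libraries were left out of ratios. Positions are from RefSeq (GRCm38.p6), matched for 45679 genes. The folds and their intervals were tested on simulated counts that held counting error only. Copies made by PCR, reads shared between genes and spread between cultures were not simulated.

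Named in full were the paralogues with their main copies, the 8 highest and the 8 lowest ratios, the 5 highest and the 5 lowest mean TPM, the stalk and 5S members, Gas6, Rpl36al, Fau, Rack1, Trp53, Mdm2, Myc, and up to 3 genes with the largest absolute ratio from each of 9 comparison lists. Some genes that this rule covers are not reported here. The members, lists and marks were chosen with earlier results of these data known. Results were recomputed under DESeq2 1.42.0 size factors, total counts, the upper quartile and TMM without the members; with a pseudocount of 5 or the deposited TPM or FPKM; under other filters and fold marks; and after subtraction of the chromosome's median.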

Additional observations from a re-analysis of the deposited data

How the results depend on the processing

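The lower level of the ribosomal protein genes kept its sign under each setting tried. No paired analysis was possible because each group has 1 library. Total count, DESeq2 size factors, TMM without the members, the deposited FPKM, a pseudocount of 5 and a filter of 10 CPM left the 4 counts of calls within 1.5 times and the medians of the members within counting error. Upper-quartile scaling, which lowers the log2 ratio of every gene by a like amount, gave 18 members at least 20% lower. The medians were -0.23 for all measured members, -0.23 for the large and -0.25 for the small subunit. The deposited TPM gave medians of -0.13, -0.14 and -0.14, and its summed share was 11.1% in shGas6 and 12.3% in shControl. With pseudogene and retrocopy rows, the share of counts was 4.44% and 5.13%. With the chromosome's median subtracted, the median was -0.21 over all members and -0.25 over the small subunit. A filter of 1 count added Rpl3l and Rpl39l, both at 0 in shControl, which gave 2 genes 2-fold higher, 3 genes at least 25% higher and a paralogue median of 0.48 (0.11 with 0 counts set to a floor of 3 per library). At 1.5-fold, 1 gene was higher and 4 lower. Further settings were chosen after seeing the data. The local median subtracted gave 17 members at least 20% lower and medians of -0.22 for all members and -0.22 for the large subunit. Without chromosomes 1, 5, 8 and 13 there was 1 member at least 20% lower (1.45% of members, against 19.3% of non-member genes elsewhere). For the counts under other scalings, filters and subtractions, the share of all measured genes was not recomputed.

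Of 34 members followed one by one, 9 whose counting interval excluded no difference changed sign in at least 1 setting. Rpl36 and Rpl34, whose intervals held no difference, changed sign too. Rpl36 was at -0.036 with upper-quartile scaling and -0.039 against its chromosome, and Rpl34 was at 0.013 with TPM. Rpl10 was at 0.0012 with TPM and 0.058 against its chromosome, and Rpl12 was at 0.018 with TPM. Against the chromosome's median Rpl37 was at -0.17, Rpl8 at -0.15 and Rps2 at -0.0077 (-0.0045 with upper-quartile scaling). Against the local median, Rpl10a was at -0.052, Rpl21 at -0.49, Rpl37 at -0.15, Rps2 at -0.077 and Rps20 at 0.019. Rps3a1 summed with its copies was at -0.17. The cause was not tested, beyond what each setting changes. With 1 library per group, the spread between cultures is unknown, and no depth makes up for it. Of the 11 genes at least 20% lower, 10 lie on chromosomes 1, 5, 8 and 13, where 41.3% of non-member genes were at least 20% lower.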
